A study of Mus musculus with 6 samples.

Results

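The 10 genes described here encode the TGF-beta ligands Tgfb1, Tgfb2 and Tgfb3, the latent TGF-beta binding proteins (LTBPs) Ltbp1, Ltbp2, Ltbp3 and Ltbp4, and the receptors Tgfbr1, Tgfbr2 and Tgfbr3. They were chosen by symbol, as 3 ligands, 4 LTBPs and 3 receptors, from the 54532 genes of the deposited table. The cells were eYFP-positive cells sorted from dissociated fetal livers of CD-1 mice of the genotype Sm22-Cre/ROSA26RYFP, with 3 libraries (A, B and C) from embryonic day 16 (E16) and as many from day 18 (E18). All 6 libraries share that genotype, in which Cre under the Sm22 (Tagln) promoter switches on eYFP for good in any cell that once used the promoter and in its descendants, so that the mark records history rather than current smooth muscle state. No other agent is named, and separate litters or pools behind the libraries are not stated, so p-values measure only library-to-library spread, some of which may be technical. Sets of 3 values below are in the order A, B, C.

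TGF-beta is made as a precursor that the protease furin cleaves, after which the propeptide stays wrapped around the growth factor and holds it inactive. In most mesenchymal cells an LTBP is joined to the propeptide before secretion and ties the latent complex to fibrillin microfibrils and fibronectin, from which integrins and proteases can release it. Free ligand binds the kinase receptor Tgfbr2, which recruits and activates Tgfbr1, and Tgfbr1 phosphorylates Smad2 and Smad3. In the liver the pathway is known for its part in matrix production by stellate cells and portal fibroblasts.

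LTBP transcripts were higher at E18 and the most abundant ligand and receptor transcripts were not distinguishable between the days. Ltbp2, Ltbp3 and Ltbp4 rose, as did the ligand Tgfb2, by log2 fold changes of 4.15, 2.70, 2.96 and 1.90 (limma on log2(TPM + 1), adjusted over 17824 genes). TPM is transcript abundance per unit of transcript length with a fixed library total. The other ligand and receptor genes, and Ltbp1, did not pass the test. In all, 4 of 10 members were called at adjusted p under 0.05, all higher at E18, against 3.47% of all tested genes called in either direction, 3.08% higher and 0.387% lower. The values of the 2 days did not overlap for 7 of 10 members, each higher at E18, against 26.5% of all tested genes in either direction, 18.4% higher and 8.05% lower. The same 7 members had an unadjusted limma p under 0.05, against 20.9% of all tested genes. Every member passed the filter of at least 1 TPM in at least 3 libraries.

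The libraries were mixed. Recovered depth was 14586259 to 22624483 reads, with the E16 libraries all deeper than the E18 libraries, and libraries of 1 day correlated at 0.893 to 0.942 against 0.821 to 0.909 between days (Pearson, log2 scale, over 6 and 9 pairs). Summed TPM over 10 hepatocyte markers ran from 2072 to 8736 at E16 and from 376 to 979.8 at E18, and over 10 erythroid markers from 5104 to 6930.2 and from 10403 to 18280. Mesenchymal markers were present and higher at E18: 20.8 to 56.7 against 191 to 415 summed TPM for 8 smooth muscle genes, 25.2 to 65.5 against 290.2 to 699 for 8 portal fibroblast genes, 20.7 to 53.8 against 109 to 344 for 8 stellate genes, and 22.9 to 24.6 against 79.8 to 144 for 7 mesothelial genes. Tagln itself was listed at 0.606 to 3.37 TPM, but 67.9% of its exon length lies opposite exons of Gm48529 and Pcsk7, and how such reads were counted is not given in the sources used here. Of the endothelial list 5 of 7 genes stayed under 1 TPM in every library, and of the macrophage list 5 of 7, with Cd68 giving most of its sum of 37.2 to 112 TPM.

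To show what lies upstream of members that moved together and of Tgfb1, which did not, promoter sequence was taken from RefSeq (GRCm38.p6, the mm10 assembly). The windows hold 250 bases upstream of an annotated start, less any bases in exons of protein-coding genes, are written 5′ to 3′ on the gene's strand, and 8 of 10 members had one. Capitals mark 6 motifs searched on both strands, overlapping copies included: the TATA box TATAAA, the GC box GGGCGG, the box CCAAT that the factor NF-Y binds, the core CAGAC that SMAD proteins bind, the cyclic AMP element TGACGTCA and the AP-1 site TGANTCA.
Tgfb1, chr7:25686752-25687001, plus strand: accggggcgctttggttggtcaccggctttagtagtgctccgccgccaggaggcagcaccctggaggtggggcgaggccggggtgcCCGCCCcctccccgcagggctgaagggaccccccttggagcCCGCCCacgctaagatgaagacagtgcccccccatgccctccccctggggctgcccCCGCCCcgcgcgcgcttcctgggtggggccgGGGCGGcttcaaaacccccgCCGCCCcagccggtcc
Tgfb2, chr1:186705990-186706239, minus strand: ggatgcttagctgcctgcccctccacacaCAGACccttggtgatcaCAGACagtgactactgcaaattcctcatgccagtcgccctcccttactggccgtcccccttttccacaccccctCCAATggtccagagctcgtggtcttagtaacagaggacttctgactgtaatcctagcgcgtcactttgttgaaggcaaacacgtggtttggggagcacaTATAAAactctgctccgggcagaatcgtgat
Ltbp2, chr12:84876559-84876741, minus strand: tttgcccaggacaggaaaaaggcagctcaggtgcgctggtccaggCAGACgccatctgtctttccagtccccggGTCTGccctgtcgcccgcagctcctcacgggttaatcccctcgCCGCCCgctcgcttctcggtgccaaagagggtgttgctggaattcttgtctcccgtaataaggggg
Ltbp3, chr19:5740650-5740899, plus strand: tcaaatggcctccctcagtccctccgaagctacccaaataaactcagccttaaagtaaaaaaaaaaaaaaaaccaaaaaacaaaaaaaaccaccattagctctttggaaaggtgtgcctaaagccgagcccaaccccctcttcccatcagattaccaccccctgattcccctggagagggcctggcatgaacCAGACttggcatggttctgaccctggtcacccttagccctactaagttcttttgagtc
Ltbp4, upstream start, chr7:27337693-27337862, minus strand: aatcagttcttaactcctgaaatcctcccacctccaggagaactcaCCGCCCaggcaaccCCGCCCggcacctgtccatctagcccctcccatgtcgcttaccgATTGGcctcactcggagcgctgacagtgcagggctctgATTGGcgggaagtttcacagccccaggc
Ltbp4, downstream start, chr7:27333664-27333913, minus strand: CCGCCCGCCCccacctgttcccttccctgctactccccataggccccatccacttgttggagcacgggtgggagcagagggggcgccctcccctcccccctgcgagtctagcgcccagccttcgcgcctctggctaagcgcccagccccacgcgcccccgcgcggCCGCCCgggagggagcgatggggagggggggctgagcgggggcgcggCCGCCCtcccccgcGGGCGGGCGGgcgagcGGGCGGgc

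The windows differed among members that moved the same way. Over the full 250 bases, Tgfb1 held 5 GC boxes and none of the other motifs at 75.2% GC, and Tgfb2 held a TATA box, 1 CCAAT and 2 CAGAC cores at 53.6% GC. Ltbp2 held 2 CAGAC cores and 2 GC boxes at 61.6% GC, and Ltbp3 held 1 CAGAC core at 47.2% GC. Of 3 Ltbp4 windows the upstream one held 3 GC boxes and 2 CCAAT at 64.4% GC. The other two overlap each other and held 5 and 7 GC boxes, both at 79.2% GC, and the one with 7 is shown. No Ltbp4 window held a CAGAC core. Of the members with windows not printed, Tgfbr1, whose days overlapped like those of Tgfb1, held 1 CAGAC core in its downstream window. Its upstream window held 2 GC boxes and 2 CCAAT. The uncalled Ltbp1 held 1 CAGAC core, 3 CCAAT and 1 TGACGTCA in its upstream window, and 2 CAGAC cores in the other. No other member's window held TGACGTCA. The uncalled Tgfbr2 held 1 CAGAC core and 2 CCAAT. Over all 32851 windows of the same length the median GC content was 52.4%, and 42.2% held CAGAC, 33.8% CCAAT, 32.7% GGGCGG, 12.4% TATAAA, 6.75% TGANTCA and 1.55% TGACGTCA. No motif was shared by every window of the called members.

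Tgfb1 (ENSMUSG00000002603, chromosome 7, 25687002 to 25705077, mm10, plus strand) is the ligand most widely made by blood, immune and mesenchymal cells. It stood at 45.0, 40.4 and 58.0 TPM at E16 and at 46.7, 43.8 and 37.4 TPM at E18. The days overlapped, E16 replicate C being the highest library and E18 replicate C the lowest. Means were 47.8 ± 9.12 and 42.6 ± 4.75 TPM (SD, n = 3 each), and the log2 fold change was −0.15 with a 95% interval from −0.56 to 0.26 (limma adjusted p = 0.694). Between 1010 and 1894 recovered reads lay behind each of its values.

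Tgfb2 (ENSMUSG00000039239, chromosome 1, 186622792 to 186705989, minus strand), a ligand that needs the co-receptor Tgfbr3 for high-affinity binding, was at 1.54, 1.95 and 2.59 TPM at E16 and 8.02, 16.96 and 7.59 TPM at E18. Every E18 library was above every E16 library, and E18 replicate B was highest by 2.17 times the mean of A and C. The mean went from 2.03 ± 0.526 to 10.9 ± 5.29 TPM (SD, n = 3), which is 1.90 ± 0.37 on the log2 scale (SE; limma adjusted p = 0.0433). E16 values rested on 61 to 97 reads and E18 values on 205 to 449. This call did not hold without any 1 of the 6 libraries: its adjusted p was then 0.0514 to 0.13, while the log2 fold change stayed between 1.56 and 2.09. At a pseudocount of 5 TPM the adjusted p was 0.0647.

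Tgfb3 (ENSMUSG00000021253, chromosome 12, 86056745 to 86079041, minus strand), a ligand made by many fibroblasts, was at 2.99, 3.34 and 8.63 TPM at E16 and 19.6, 28.6 and 14.2 TPM at E18. E16 replicate C was well above the other E16 libraries and still under the lowest E18 library. The log2 fold change was 1.93 ± 0.41, about that of Tgfb2, but it did not pass (limma adjusted p = 0.052). It passed in 2 of 20 alternatives, limma's voom on recovered reads (2.13, adjusted p = 0.0179) and weights for each library (1.38, adjusted p = 0.0229), and the adjusted p reached 0.604 in the others. The weights were 3.76 for E16 replicate C and 3.62 for E18 replicate A against 0.484 to 0.605 for the other 4 libraries, so the weighted fit leans on 1 library a day. Exons of Gm37804 and Gm48008 on the opposite strand cover 12.4% of its exon length, and Gm37804 was listed at up to 4.40 TPM. The strand setting of the counting is not given in the sources used here, so those reads cannot be assigned.

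Among ligand transcripts Tgfb1 made up 90.9%, 88.4% and 83.8% of the summed ligand TPM at E16 and 62.9%, 49.0% and 63.2% at E18. Tgfb3 took 6.03% to 12.5% at E16 and 24.0% to 31.98% at E18. Tgfb2 took 3.11% to 4.26% and then 10.8% to 19.0%. The share of Tgfb1 was thus lower in each E18 library than in any E16 library although its own level overlapped. The summed level of Tgfb2 and Tgfb3 over that of Tgfb1 was 0.101, 0.131 and 0.193 at E16 and 0.591, 1.04 and 0.584 at E18.

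**Figure D1:**
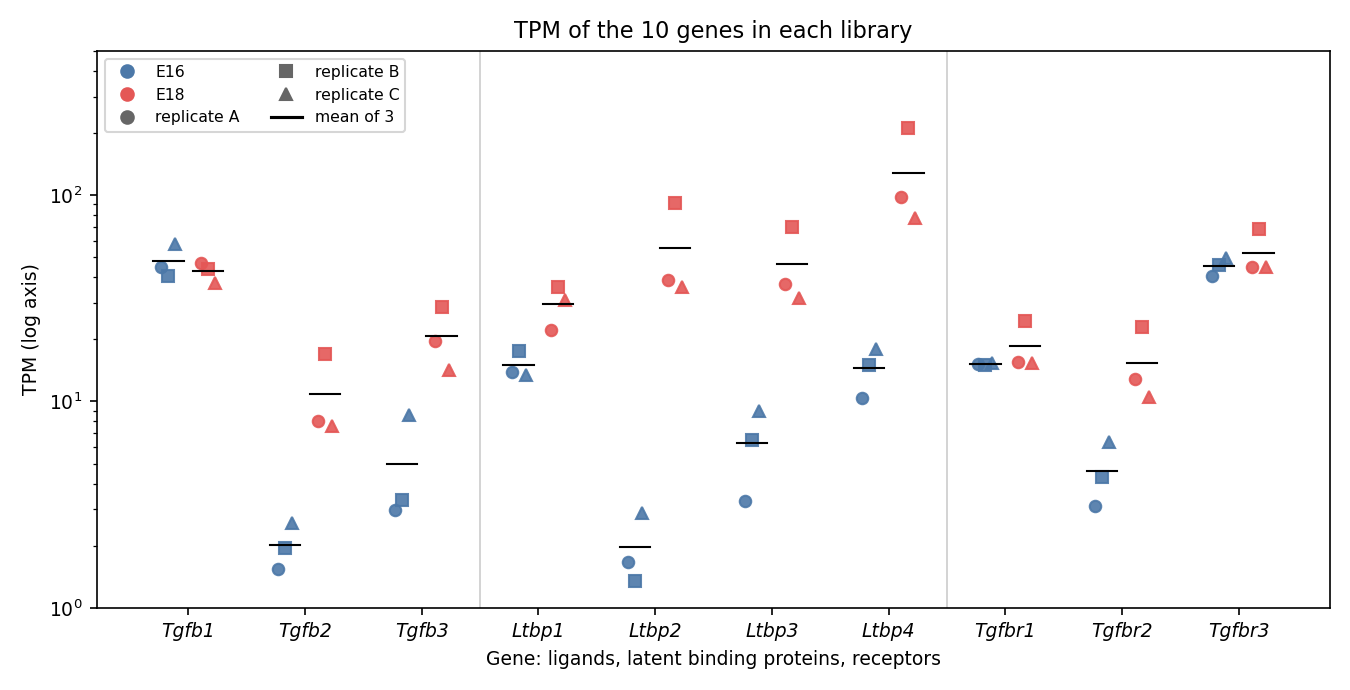
TPM of each of the 10 genes (x axis) in each library, on a log axis, with E16 in blue, E18 in red, a marker shape for each replicate letter and a black line at the mean of 3. Ltbp2, Ltbp3 and Ltbp4 are well separated between the days, while Tgfb1, Tgfbr1 and Tgfbr3 overlap, and E18 replicate B is the highest E18 library for 9 of the 10 genes.

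Ltbp2 (ENSMUSG00000002020, chromosome 12, 84783212 to 84876532, minus strand) encodes the LTBP that does not bind latent TGF-beta and is known as a component of elastic microfibrils. It was at 1.66, 1.34 and 2.89 TPM at E16, the lowest mean of the 10 genes, and at 38.7, 91.4 and 35.9 TPM at E18, the second highest mean. The lowest E18 library was 12.4 times the highest E16 library, the widest gap among the members. Means of 1.96 ± 0.815 and 55.3 ± 31.3 TPM (SD, n = 3) gave a 28.2-fold ratio, and limma gave 4.15 ± 0.40 on the log2 scale (SE; limma adjusted p = 0.0191). Between 73 and 153 reads lay behind the E16 values and 1397 to 3418 behind the E18 values. D030025P21Rik, on the opposite strand over 9.34% of its exon length, was listed at 0 in each library.

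Ltbp4 (ENSMUSG00000040488, chromosome 7, 27305136 to 27337692, minus strand), which takes part in elastic fibre assembly as well as in holding latent TGF-beta, was the most abundant of the 10 genes at E18. Its values were 10.4, 15.1 and 17.9 TPM at E16 and 97.5, 211 and 77.0 TPM at E18. All E18 libraries were at least 4.29 times the highest E16 library, and E18 replicate B was 2.41 times the mean of A and C. The log2 fold change was 2.96 ± 0.38 (limma adjusted p = 0.0273). No exon of another gene overlapped its exons.

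Ltbp3 (ENSMUSG00000024940, chromosome 19, 5740904 to 5758532, plus strand), which binds latent complexes and is known for its part in skeletal growth, was at 3.30, 6.53 and 8.96 TPM at E16 and 37.1, 70.3 and 31.9 TPM at E18. The days did not overlap, the lowest E18 value being 3.56 times the highest E16 value. Its mean rose from 6.26 ± 2.84 to 46.4 ± 20.8 TPM (SD, n = 3), or by 2.70 ± 0.40 on the log2 scale (limma adjusted p = 0.0314).

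Ltbp1 (ENSMUSG00000001870, chromosome 17, 75005568 to 75392512, plus strand), which binds the latent forms of the 3 ligands, had the smallest difference of the family. It was at 13.9, 17.5 and 13.4 TPM at E16 and 22.1, 36.0 and 30.8 TPM at E18, without overlap, and 928 to 1822 reads lay behind each value. The log2 fold change was 0.92 ± 0.22 with a 95% interval from 0.41 to 1.44, and it did not pass (limma adjusted p = 0.0653). It passed in the same 2 of 20 alternatives, with adjusted p of 0.0214 by voom and 0.0184 with library weights, and the adjusted p reached 0.358 in the others.

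The order within the LTBP family differed between the days. At E16 Ltbp1 and Ltbp4 overlapped, with means of 14.9 and 14.5 TPM, and Ltbp4 was above Ltbp3 in 3 of 3 E16 libraries. At E18 Ltbp4 had the highest mean, and its lowest library overlapped the highest of Ltbp2. Ltbp1 went from 31.0% to 47.6% of the family's summed TPM at E16 to 8.81% to 17.6% at E18, and Ltbp2 from 3.32% to 6.68% to 19.8% to 22.4%. Ltbp4 took 35.5% to 41.5% and then 43.8% to 51.6%. The share of Ltbp3 overlapped, at 11.3% to 20.7% and 17.2% to 19.0%.

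Within a library, ratios between members do not depend on how the library was scaled, apart from the pseudocount. Of 12 pairs of genes of the same family, 9 had log2 ratios that did not overlap between the days, with an exact 2-sided permutation p of 0.1 for each, the smallest that 3 against 3 libraries can give (0.133 adjusted over 12 pairs). No pair could therefore pass. The pairs share genes and so are not independent, and no share over pairs of all genes was computed. On the log2(TPM + 1) scale Ltbp1 minus Ltbp2 went from 2.45 ± 0.55 to −0.77 ± 0.55 (SD, n = 3). Ltbp2 minus Ltbp4 went from −2.38 ± 0.35 to −1.20 ± 0.12, and Ltbp2 minus Ltbp3 from −1.24 ± 0.51 to 0.20 ± 0.16. Ltbp3 minus Ltbp4, Tgfb2 minus Tgfb3 and Tgfbr1 minus Tgfbr3 overlapped, with differences between the days of −0.25, −0.03 and 0.05 (exact permutation p = 0.3, 0.9 and 0.6).

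**Figure D2:**
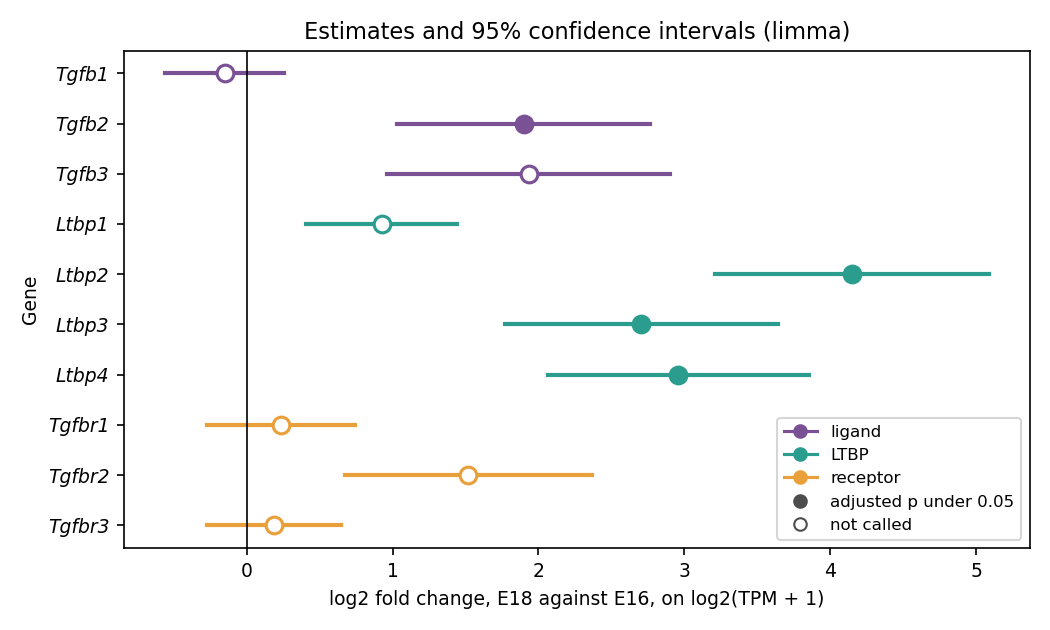
Log2 fold change of E18 against E16 for each gene (y axis) with its 95% confidence interval, coloured by family, with filled points for adjusted p under 0.05. The intervals of Tgfb1, Tgfbr1 and Tgfbr3 span 0, and the largest estimate is 4.15 for Ltbp2.

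Tgfbr3 (ENSMUSG00000029287, chromosome 5, 107106570 to 107289629, minus strand), the co-receptor betaglycan, had the highest level of the receptors. It was at 40.6, 45.9 and 49.3 TPM at E16 and 44.6, 68.5 and 44.6 TPM at E18. Only E18 replicate B lay above the E16 range, and the log2 fold change was 0.19 with a 95% interval from −0.28 to 0.65 (limma adjusted p = 0.669). Without that library it was −0.016. Gm43422, on the same strand over 4.54% of its exon length, was at 2.28 to 5.45 TPM.

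Tgfbr1 (ENSMUSG00000007613, chromosome 4, 47353222 to 47414931, plus strand), the type I kinase receptor, was nearly flat, at 15.1, 15.1 and 15.4 TPM at E16 and 15.6, 24.5 and 15.4 TPM at E18. Here too E18 replicate B stood apart while the other E18 libraries were close to the E16 libraries. The log2 fold change was 0.24 with a 95% interval from −0.27 to 0.74 (limma adjusted p = 0.614).

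Tgfbr2 (ENSMUSG00000032440, chromosome 9, 116084293 to 116175360, minus strand), the type II receptor that binds ligand first, was at 3.11, 4.30 and 6.39 TPM at E16 and 12.8, 23.0 and 10.5 TPM at E18. The days did not overlap, yet the log2 fold change of 1.52 ± 0.36 did not pass (limma adjusted p = 0.065). Again 2 of 20 alternatives passed, voom (adjusted p = 0.0199) and library weights (0.0212), and the adjusted p reached 0.553 in the others. Tgfbr2 made up 5.29% to 8.997% of receptor TPM at E16 and 14.9% to 19.8% at E18. Tgfbr1 minus Tgfbr2 went from 1.57 ± 0.41 to 0.29 ± 0.21 on the log2 scale (SD, n = 3).

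Summed by family, LTBP transcripts went from 29.2, 40.5 and 43.2 TPM at E16 to 195, 408 and 176 TPM at E18. Ligands summed to 49.5, 45.7 and 69.2 TPM and then 74.3, 89.4 and 59.2 TPM, which overlapped. Receptors summed to 58.9, 65.3 and 71.1 TPM and then 73.0, 116 and 70.5 TPM, which also overlapped. The ratio of LTBP to ligand TPM was 0.590, 0.885 and 0.624 at E16 and 2.63, 4.57 and 2.96 at E18, so that ligand transcripts outnumbered LTBP transcripts in each E16 library and the reverse held in each E18 library. Leaving out Ltbp2, which does not bind latent TGF-beta, the ratio was 0.556, 0.856 and 0.582 and then 2.11, 3.55 and 2.36. The ratio of LTBP to receptor TPM was 0.496 to 0.620 and then 2.49 to 3.52, and that of ligand to receptor TPM 0.70 to 0.974 and 0.771 to 1.02. These sums and ratios are values only and carry no test.

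**Figure D3:**
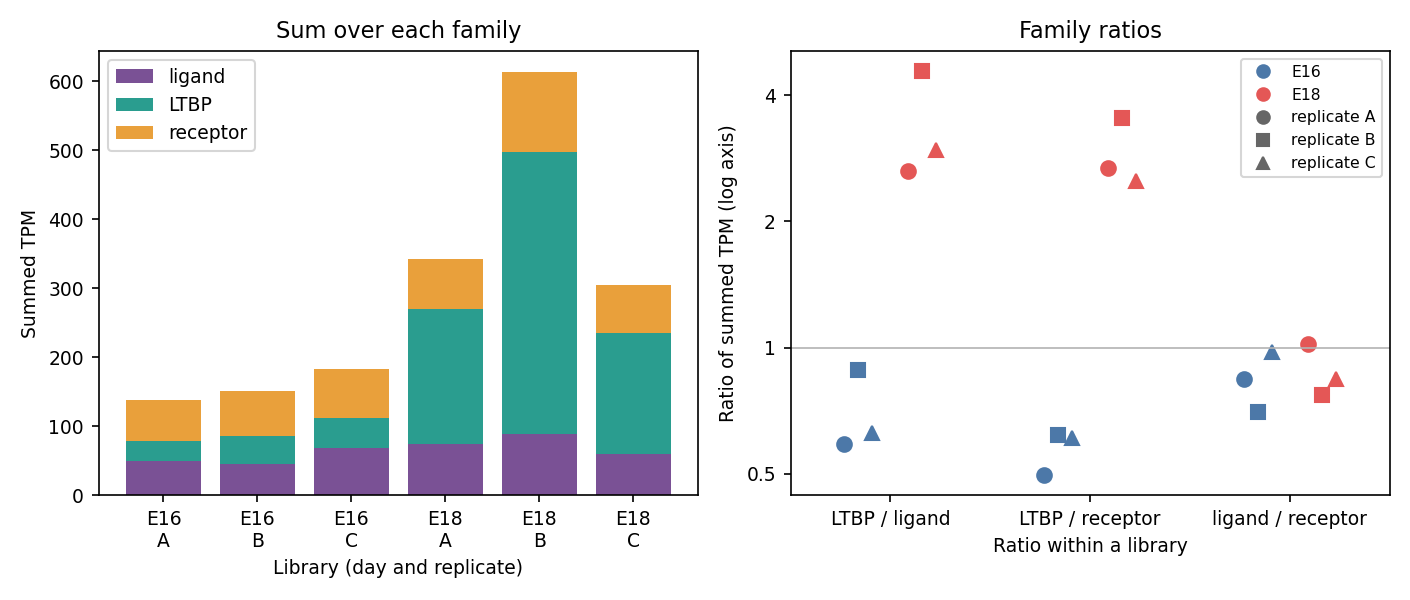
Left, summed TPM of ligands, LTBPs and receptors in each library. Right, ratios of these sums within each library on a log axis, E16 in blue and E18 in red. LTBP over ligand lies at 0.590 to 0.885 at E16 and 2.63 to 4.57 at E18, and ligand over receptor overlaps between the days.

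**Figure D4:**
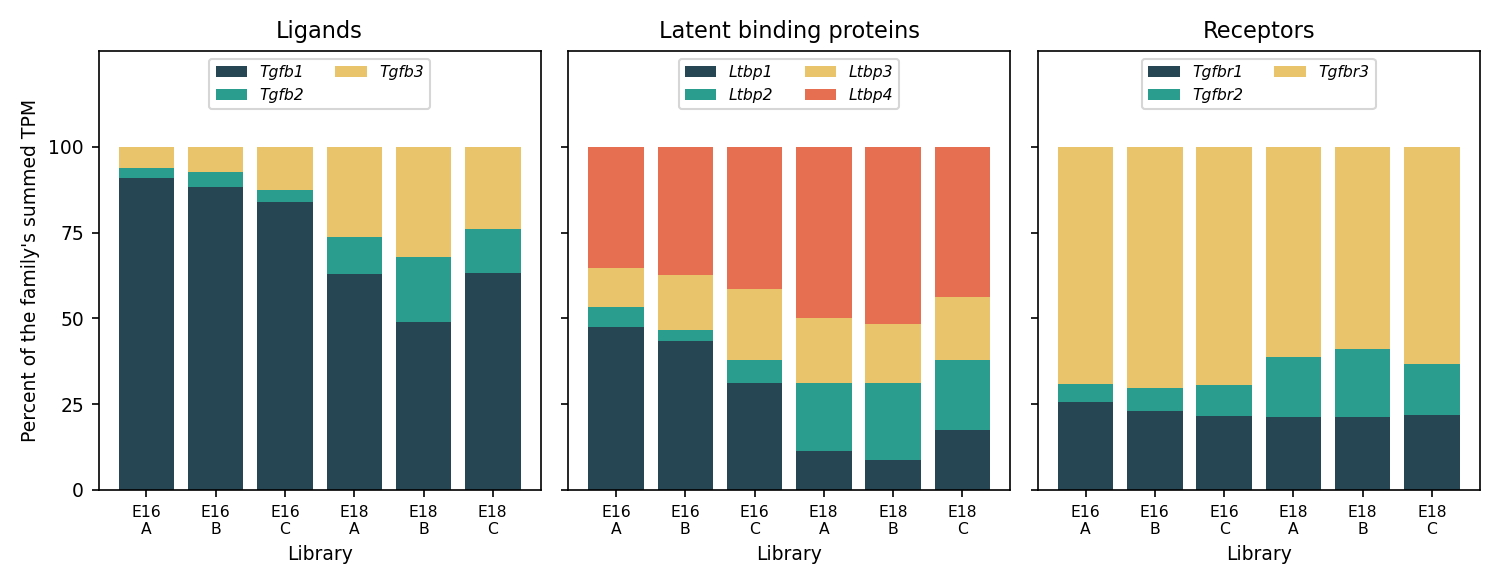
Percent of each family's summed TPM taken by each member (y axis) in each library (x axis). Tgfb1 takes 83.8% to 90.9% of ligand TPM at E16 and 49.0% to 63.2% at E18, and Tgfbr3 has the largest receptor share in every library.

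By mean TPM the E16 order was Tgfb1, Tgfbr3, Tgfbr1, Ltbp1, Ltbp4, Ltbp3, Tgfb3, Tgfbr2, Tgfb2 and Ltbp2. Neighbours in that order overlapped over the 3 libraries except Tgfbr3 above Tgfbr1, Ltbp4 above Ltbp3 and Tgfbr2 above Tgfb2. The E18 order was Ltbp4, Ltbp2, Tgfbr3, Ltbp3, Tgfb1, Ltbp1, Tgfb3, Tgfbr1, Tgfbr2 and Tgfb2, in which only Tgfb1 above Ltbp1 was free of overlap. Compared within each library, some overlapping neighbours kept their order in 3 of 3. At E18 these were Ltbp4 above Ltbp2, Ltbp1 above Tgfb3, Tgfbr1 above Tgfbr2 and Tgfbr2 above Tgfb2, and at E16 Ltbp3 above Tgfb3. The other overlapping neighbours kept it in 1 or 2 of 3. By mean, Tgfb1 thus stood first at E16 and behind 3 LTBPs and Tgfbr3 at E18, with its own level overlapping. Single libraries did not all keep these places. In E18 replicates A and C, Tgfb1 (46.7 and 37.4 TPM) was above Ltbp2 (38.7 and 35.9) and Ltbp3 (37.1 and 31.9). Tgfbr3 was at 44.6 TPM in both. At E16 Tgfb1 was above Tgfbr3 in 2 of 3 libraries.

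The libraries in which members were high also held more mesenchymal marker RNA. Within E18, replicate B was highest for 9 of 10 members, all but Tgfb1, and exceeded the mean of A and C by 1.78 times for the smooth muscle list, 2.24 times for the portal fibroblast list, 2.69 times for the stellate list and 1.76 times for the mesothelial list. Within E16, replicate C was highest for 9 of 10 members, all but Ltbp1, and also had the highest sum of each of these 4 lists. The sums at E16 were 20.8, 22.2 and 56.7 TPM for smooth muscle and 25.2, 43.8 and 65.5 TPM for portal fibroblasts. They were 20.7, 30.6 and 53.8 TPM for the stellate list, and nearly level at 23.8, 22.9 and 24.6 TPM for the mesothelial list. Tgfbr1 was nearly level too, at 15.1, 15.1 and 15.4 TPM. Between the days the mean sums of these lists were 8.84, 9.85, 5.71 and 4.30 times higher at E18, beside 28.2 for Ltbp2, 8.88 for Ltbp4, 7.42 for Ltbp3, 5.36 for Tgfb2, 4.17 for Tgfb3, 3.35 for Tgfbr2 and 1.98 for Ltbp1. Of these lists 8 of 8, 8 of 8, 7 of 8 and 7 of 7 genes lay higher at E18 without overlap, and 6, 7, 4 and 4 passed limma's test. Over all tested genes 18.4% lay higher without overlap and 3.08% were called higher. Des is counted in both the smooth muscle and the stellate list. Their part in the results was not tested. In such bulk samples, fewer cells of a type and less RNA per cell cannot be told apart.

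Blood cell types that can make Tgfb1 were also read from their markers. The megakaryocyte list summed to 27.3 to 70.4 TPM at E16 and 38.1 to 118 TPM at E18, with no gene called. Gp9 was at 8.59 to 16.0 TPM over all libraries, and Gp1bb was listed at 0, but 92.9% of its exon length is shared with Gm49601 and Sept5 on the same strand. The macrophage list summed to 41.9 to 56.9 and 37.2 to 112 TPM, with Adgre1, C1qa and C1qb at 0. The leukocyte list summed to 1.05 to 2.97 TPM at E16 and 6.46 to 8.79 TPM at E18, without overlap. Of its 6 genes Lyz2 was the 1 called higher, at 0.445 to 1.88 and 4.82 to 8.53 TPM (limma adjusted p = 0.0444), and Ptprc was at most 0.143 TPM. The neutrophil list summed to 0.406 to 1.72 TPM at E16 and 8.33 to 21.2 TPM at E18, with 2 of 6 genes called higher.

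The rest of the pathway was read from 5 lists of 58 genes, of which 53 were tested, 25 rose and 0 fell, against 3.08% of all tested genes called higher and 0.387% called lower. The median log2 fold change of the 53 was 1.72, against 0.07 over all tested genes. As over all genes, 0 of them passed when either E16 replicate A or C, or either E18 replicate A or B, was left out. The mesenchymal marker lists moved with these genes and share Acta2, Tagln and Mfap4 with them, and their part was not tested.

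Of the 10 genes listed as microfibril and matrix anchors of LTBPs, 6 rose, with a median log2 fold change of 2.501. All 10 lay higher at E18 without overlap, against 18.4% of all tested genes. Fbn1, the fibrillin of mature microfibrils, was at 11.3, 13.2 and 23.2 TPM at E16 and 81.0, 213 and 80.0 TPM at E18 (log2 fold change 2.80 ± 0.43, limma adjusted p = 0.0328). Opposite-strand exons of Gm9913 cover 20.1% of its exons. Fbn2, the fetal fibrillin, rose by 2.92 ± 0.46 and Emilin1, an elastic fibre glycoprotein, by 2.09 ± 0.34. Adamtsl2, a microfibril-associated protein that binds LTBP1, rose by 3.70 ± 0.49, from at most 0.464 TPM at E16 to 7.54 to 28.8 TPM at E18. Fibronectin (Fn1), at 48.0 to 85.8 and 106 to 255 TPM, did not pass (limma adjusted p = 0.142).

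Among 15 genes that release or present latent TGF-beta, 12 were tested and 4 rose, with a median of 1.53. Lrrc32 (GARP), a surface protein that tethers latent TGF-beta on cells, was at 0.906, 1.45 and 2.64 TPM at E16 and 15.4, 38.7 and 14.2 TPM at E18 (3.06 ± 0.45, limma adjusted p = 0.0314). Thbs1, a matrix protein that can activate the latent complex, rose by 3.10 ± 0.55, although E16 replicate B, at 27.1 TPM, was far above the other E16 libraries at 5.91 and 9.33. The proteases Mmp2 and Mmp14 rose by 3.29 ± 0.39 and 1.76 ± 0.33. The integrin subunit Itgav was at 3.91 ± 1.63 and 12.2 ± 7.03 TPM (SD, n = 3; limma adjusted p = 0.122). Its 5 listed beta partners covered a wide range of levels. Itgb1 was at 320.3 to 364 TPM at E16 and 375 to 440.5 TPM at E18, Itgb5 at 5.89 to 10.1 and 15.2 to 39.7 TPM, and Itgb3 at 1.44 to 11.2 and 13.3 to 24.4 TPM. These 3 lay higher at E18 without overlap, as did 18.4% of all tested genes, and none passed (limma adjusted p = 0.463, 0.0742 and 0.143). Itgb3 was highest in E16 replicate B and E18 replicate C, as was Itga2b of the megakaryocyte list, while Itgav was highest in E16 replicate C and E18 replicate B. Which cells made Itgb3 was not tested. Itgb8, at 0.0794 to 0.265 and 0.753 to 2.81 TPM, and Itgb6, at no more than 0.153 TPM, did not pass the filter. Plg, the liver gene for plasminogen, was at 11.9 to 55.6 TPM at E16 and 2.08 to 5.95 TPM at E18 (limma adjusted p = 0.0646), with 11.3% of its exon length opposite Slc22a3.

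Of 6 Smads and co-receptors, 2 rose, a co-receptor and a type I receptor best known from endothelium. Eng (endoglin) was at 34.8, 45.9 and 38.1 TPM at E16 and 69.7, 111 and 71.9 TPM at E18 (1.04 ± 0.21, limma adjusted p = 0.0472). Acvrl1 rose by 2.44 ± 0.43, from at most 0.724 TPM to 4.197 to 10.7 TPM, while the endothelial list summed to 1.34 to 1.75 TPM at E16 and 2.53 to 8.14 TPM at E18. The signal carriers differed less: Smad2 was at 31.8 ± 0.745 and 31.3 ± 1.93 TPM, Smad3 at 33.0 ± 0.959 and 25.3 ± 2.62 TPM and Smad4 at 22.8 ± 0.384 and 32.7 ± 2.49 TPM (SD, n = 3; limma adjusted p = 0.942, 0.177 and 0.0869). Smad3 and Smad4 nevertheless had no overlap between the days, in opposite directions. The same was true of 26.5% of all tested genes, counting either direction.

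Of 12 inhibitors 11 were tested and 3 rose, with a median of 1.22. They were the proteoglycans Bgn (3.25 ± 0.45) and Dcn (2.54 ± 0.39), which bind TGF-beta, and Pmepa1 (2.28 ± 0.40), which hinders receptor signalling. Bambi, a decoy receptor, was at 3.02 ± 0.413 and 8.94 ± 2.34 TPM, and the inhibitory Smad7 at 2.80 ± 0.898 and 9.11 ± 7.06 TPM (SD, n = 3), and neither passed (limma adjusted p = 0.0554 and 0.216). Smad7 was at 17.2 TPM in E18 replicate B against 5.71 and 4.40 in A and C.

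Among 15 genes that TGF-beta is known to induce, 14 were tested and 10 rose, with a median of 2.63. Many of them are also matrix or smooth muscle genes, and other signals induce them too. Ccn2, a matricellular gene, was at 0.256, 0.368 and 0.594 TPM at E16 and 11.8, 19.3 and 7.15 TPM at E18 (3.20 ± 0.39, limma adjusted p = 0.0273). Postn, another matricellular gene, rose by 2.82 ± 0.36, and Lox, which crosslinks collagen and elastin, by 2.52 ± 0.36. Exons of Gm15270 on the opposite strand cover 23.2% of the exon length of Ccn2. Tgm2 (limma adjusted p = 0.575), with 21.8% of its exon length opposite other exons, and Cdkn2b (0.622) overlapped between the days.

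**Figure D5:**
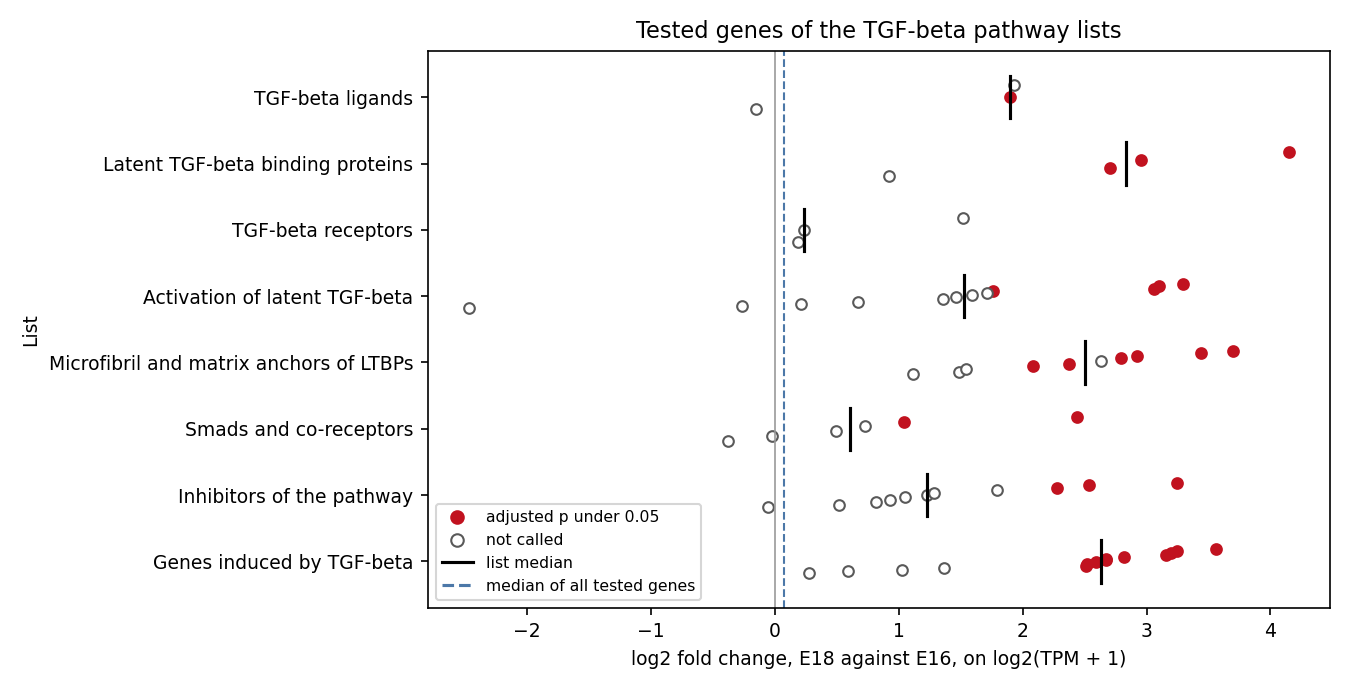
Log2 fold change of E18 against E16 for each tested gene of the 3 families and the 5 other lists (y axis), red for adjusted p under 0.05 and white otherwise, with a black bar at each list's median and a dashed line at the median of all tested genes, 0.07. No gene was called lower, and receptors and Smads lie nearest the dashed line.

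Genes with the pattern most like a member were found by the root-mean-square difference of log2(TPM + 1), centred on each gene's mean, over the 6 libraries, among protein-coding genes. Nearest to Ltbp2 were Mgp (0.139), Eln (0.200) and Adamtsl2 (0.282), against a spread of 2.13 of Ltbp2 about its own mean. Eln, the gene for elastin, was at 5.57, 8.18 and 10.3 TPM at E16 and 126, 269 and 114 TPM at E18. Nearest to Ltbp4 were Adamts2 (0.0944), Fbln1 (0.105) and Col4a2 (0.112), against 1.56. Tgfb1 was nearest to Ttc38, Selenoo and Zbtb2 (0.0456 to 0.0504, against 0.193), and Tgfbr3 to Stat3, Cyth1 and Pla2g15 (0.0608 to 0.0638, against 0.236).

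The number of members called rested on single libraries, as did the number over all tested genes. With all 6 libraries, 4 members and 618 genes were called. Leaving out E16 replicate A or C, or E18 replicate A or B, made both numbers 0 by limma. In each case 7 members kept an unadjusted limma p under 0.05. Without E16 replicate B, 1 member, Ltbp2, and 55 genes were called, and without E18 replicate C, 3 members and 664 genes. In these fits the log2 fold change stayed at 3.72 to 4.39 for Ltbp2, 2.37 to 2.97 for Ltbp3 and 2.54 to 3.26 for Ltbp4.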

How the data were processed

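RNA was measured in sorted eYFP-positive fetal liver cells, and libraries were made with a stranded total RNA kit, per the labels' protocols. The authors deposited TPM for 54532 genes in 6 columns, matched to samples by title. The submitters' processing notes name mm10, HISAT2 2.1.0, HTSeq 0.5.4p3, FastQC 0.11.7 and Bowtie, with no roles. How strand was set, which annotation was used and how TPM was computed is not given in the sources used here. Symbols covered 54409 identifiers. Positions and exon lengths came from GENCODE M21 (GRCm38, the mm10 assembly), counted from 1. TPM times exon length gave whole multiples of 1 read, within 0.05, for 96.8% to 97.1% of values above 0, from which reads were recovered (21128612 to 22624483 at E16 and 14586259 to 18280340 at E18). At 1 TPM, a gene of 1 kb then rests on 4.41 to 6.83 reads.

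Genes with at least 1 TPM in at least 3 libraries, 17824, were tested in R 4.3.3 by limma 3.58.1, with log2(TPM + 1) values and a trend on intensity. The p-values are 2-sided and adjusted by Benjamini-Hochberg over all genes tested, and intervals are at 95%. In all, 618 genes were called, 549 higher and 69 lower. Fold changes on this scale understate low genes. Ratios used exact permutation tests (SciPy 1.17.1), and figures Matplotlib 3.10.9. The members, the lists, the rule for naming genes (from each of the 5 other lists up to 4 tested genes with the smallest p, and the fixed genes Smad2, Smad3, Smad4, Smad7, Fbn1, Itgav and Eng, with some items not reported here) and the tests were chosen with earlier results of these data known. The integrin beta genes, Plg, Fn1, Tgm2, Cdkn2b, Eln and the single marker genes were named after their values were seen. Alternatives were other pseudocounts, filters and scalings, voom on recovered reads, weights, a hepatocyte covariate, a block and leaving out each library; leaving out both B libraries was added after seeing the data.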

Additional observations from a re-analysis of the deposited data

How the results depend on the processing

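The 4 called members kept their direction under each of the 20 alternatives, Ltbp2 between 3.004 and 4.72, Ltbp3 between 2.15 and 2.97, Ltbp4 between 2.54 and 3.26 and Tgfb2 between 1.13 and 2.31 on the log2 scale. Their adjusted p passed in 12, 11, 11 and 7 of the 20. The count of members called, 4, was 0 without a filter on low values, 0 with a hepatocyte score as covariate, 0 with both B libraries left out, 7 with array weights and 7 with voom on recovered reads, and 0 to 3 when 1 library was left out. The count of genes called, 618, was 347 at a pseudocount of 5 TPM, 406 at a filter of 5 TPM, 399 with quantile normalization, 4316 with array weights, 1427 with voom, 0 to 664 when 1 library was left out, and 0 without a filter, with the hepatocyte covariate or without both B libraries. At an unadjusted limma p under 0.05 these last 3 held 4571, 1783 and 2846 genes (7, 5 and 7 members), against 3720 (7 members) in the fit reported. The cause of these differences was not tested. Higher genes were 88.8% of calls, 78.7% with quantile normalization and 64.8% with array weights. The uncalled Tgfbr3 changed sign, to −0.031 with array weights, −0.0037 without both B libraries and −0.016 to 0.287 over the fits without 1 library. The 9 pairs of members without overlap were also 9 at a pseudocount of 0.1 TPM. With the letter A, B or C as a replicate block, limma called 0 genes and 0 members, with 3195 genes and 7 members at an unadjusted p under 0.05. Same-lettered libraries did not deviate together (correlations of deviations 0.102, −0.139 and −0.117 for A, B and C). With so few libraries these values cannot show whether a letter marks a shared litter or batch, and the sources used here do not say. Depth limits the E16 values of Tgfb2, Tgfb3 and Ltbp2, which rest on as few as 61, 69 and 73 reads.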
